A study of Sus scrofa domesticus with 28 samples.

Results

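SFRP4, secreted frizzled-related protein 4, is a gene for a secreted antagonist of WNT signalling, and its RNA was followed over 28 skin biopsies of 2 pigs. It was measured by 1 probe, A_72_P289989, out of 43603 on the array, and it is 1 of the 18766 features (a gene or an unnamed transcript, each read by its brightest probe) that were tested. The probe was matched to the gene through the RefSeq transcript named in the scanner files. SFRP4 was chosen by its higher level in late scar than in control skin in these same arrays, so its course over the phases is given below as a description, with no test. Pigmentation, pressure and animal did not enter that choice and were tested.

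The study sampled the red Duroc wound model, a breed that forms thick scars after deep wounds, in castrated juvenile males numbered 49 and 50. Scar was biopsied at an early, a mid and a late phase, from areas labelled hyper or hypo for pigmentation. Early scar was all labelled sham and gave 4 hyper and 4 hypo biopsies. Mid and late scar were labelled pressure or sham, and each of the 8 combinations of phase, treatment and pigmentation gave 2 biopsies, 1 from each pig. Control skin, with no treatment, gave 4 biopsies, 2 from each pig. No device, dose or number of days for the pressure or for the phases is stated. All pressure biopsies carry the code R in their titles and all mid and late sham biopsies the code L, so pressure and this code cannot be told apart in mid and late scar, and the same holds for pigmentation and another code (a1 in hyper, a3 in hypo). Since all biopsies come from 2 animals, p-values reflect how biopsies of this pair of pigs vary, not how pigs vary.

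WNT proteins act on the cell surface through frizzled receptors and LRP coreceptors, and in the canonical branch this stabilises β-catenin, which enters the nucleus and switches on target genes together with TCF and LEF factors. SFRP proteins carry a cysteine-rich domain like that of the frizzled receptors and can bind WNT ligands outside the cell. SFRP4 is made mainly by mesenchymal cells, among them fibroblasts of the dermis, the cell type that also lays down the collagen of a scar. In bulk tissue, fewer cells of a type and less RNA per cell cannot be told apart.

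Each biopsy was labelled with Cy5 and hybridised against a universal pig reference RNA in Cy3, so every level below is a log2 ratio of biopsy to reference. Between 31.4 and 55.7% of probes per array had a Cy5 signal well above background. The number of arrays limits the precision. The SFRP4 spot was well above background on 28 of 28 arrays in both channels and saturated on 0. Its Cy5 brightness, which carries the biopsy, ran from 265 to 16855, a 63.6-fold span, while its Cy3 brightness, which carries the reference, ran from 401.5 to 1070, a 2.67-fold span. The spread of the ratio therefore lay mostly in the biopsy channel. On 3 arrays, early sham hypo 50L, mid pressure hyper 49R and late pressure hyper 49R (pig number and title code name a biopsy), skeletal muscle markers stood apart, with a mean over 13 measured markers of 3.07, 4.69 and 5.59 log2 units above each marker's median, against 1.85 or less on the other arrays. SFRP4 on these 3 arrays was 3.77, 2.99 and 3.01. The SFRP4 contrasts are given with and without them.

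In early scar, SFRP4 was 0.76, 1.61, 1.11 and 2.93 in the hyper biopsies 49L, 50R, 50L and 49R. The hypo biopsies of the same phase, 50R, 49R, 50L and 49L, gave 2.41, 2.70, 3.77 and 0.87. Early scar thus spread over 3.01 log2 units, and hyper and hypo values overlapped. Mid scar under pressure gave 2.99 and 3.89 in hyper biopsies 49R and 50R, and 3.64 and 3.34 in hypo biopsies 49R and 50R. Mid sham scar gave -0.52 and 1.33 in hyper biopsies 49L and 50L, and 3.45 and 2.48 in hypo biopsies 49L and 50L. All 4 pressure values were close together, and the pair of sham hyper values lay below every other mid value. Late scar under pressure gave 3.01 and 4.37 in hyper biopsies 49R and 50R, and 2.0 and 2.83 in hypo biopsies 49R and 50R. Late sham scar gave 4.41 and 2.80 in hyper biopsies 49L and 50L, and 3.32 and 2.33 in hypo biopsies 49L and 50L. Control skin gave -0.08, 0.99, 0.01 and 1.86 in biopsies 49R, 49L, 50L and 50R. No late value fell within the control range, while 4 of 8 early and 2 of 8 mid values did not exceed the highest control value.

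**Figure D1:**
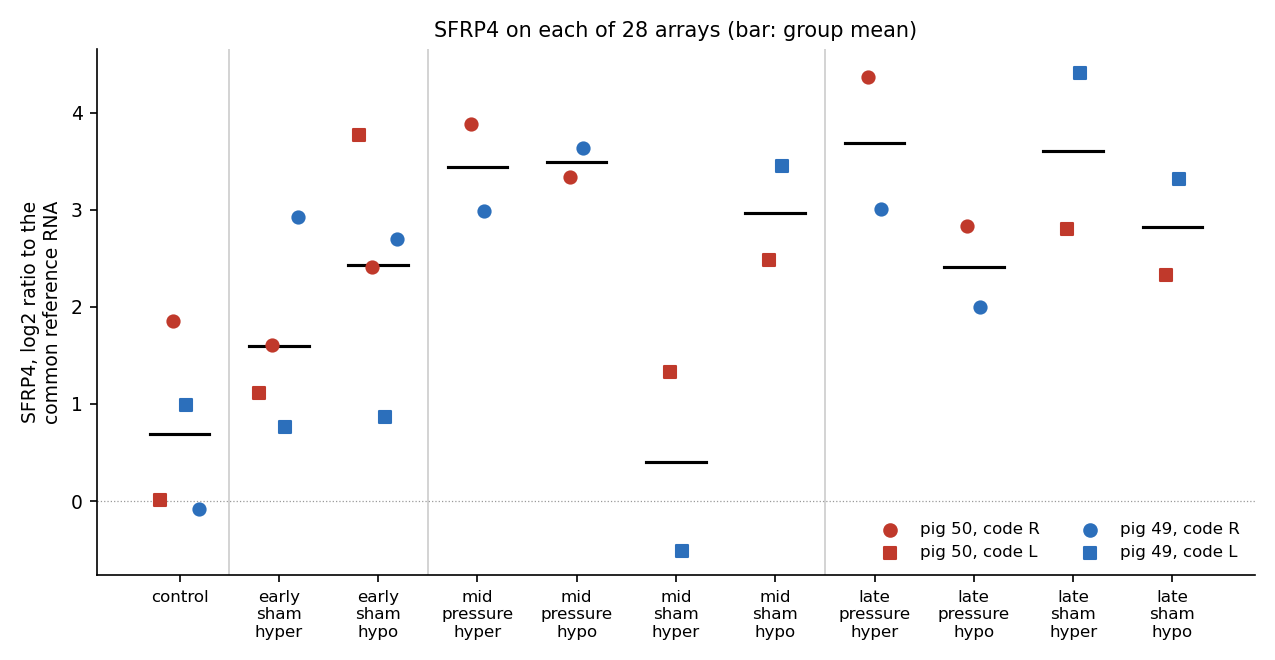
SFRP4 on each array as a log2 ratio to the common reference RNA (vertical axis) by group (horizontal axis, in the order control, early, mid, late, with pressure left of sham and hyper left of hypo). Points are biopsies, coloured by pig and shaped by title code, and bars are group means. All 8 late values, 2.0 to 4.41, lie above the highest control value of 1.86, and the lowest value of all, -0.52, is a mid sham hyper biopsy.

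By phase, SFRP4 averaged 2.02 ± 1.1 in early, 2.57 ± 1.49 in mid and 3.13 ± 0.87 in late scar (SD, n = 8 each), against 0.69 ± 0.91 in control skin (SD, n = 4). In a model fitted to all arrays, which held a mean for each of 11 groups and a term for the animal, these are differences from control skin of 1.32 ± 0.53, 1.88 ± 0.53 and 2.44 ± 0.53 (log2, SE), or 2.5, 3.68 and 5.43-fold. Late sham scar stood 1.2 ± 0.53 above early sham scar. By median the order differed, with SFRP4 at 2.01 in early, 3.16 in mid and 2.92 in late scar, against 0.50 in control skin. The mid mean is lowered by the mid sham hyper biopsies, at -0.52 and 1.33. The phases overlapped: 1 mid and 2 late values exceeded the highest early value, and the lowest late value, 2.0, was below 4 of 8 early values. The late difference was 1.56 when array ratios were centred on their median and not normalised by loess, and the late-to-early difference was then 0.42, and it was 0.69 without late sham hyper 49L. Without the 3 muscle-rich arrays, the differences from control skin were 1.1, 2.0 and 2.61, and late sham scar stood 1.42 above early sham scar.

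Some of these contrasts could be read within a slide, since 3 of the 7 slides held both scar and control arrays. On slide 2, a mid scar was 2.22 and a late scar 1.90 above the mean of its 2 control arrays. Slide 3 gave 1.69, 2.56 and 2.91 for its early, mid and late scar over its control array. On slide 4, the mean of 2 early scars was 2.54 and a late scar 3.0 above the control array. These comparisons rest on 1 or 2 arrays a side and share 4 control arrays, and they describe the values by which SFRP4 was chosen.

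Ordered by mean, the groups ran from late pressure hyper (3.69 ± 0.96) and late sham hyper (3.60 ± 1.14, SD, n = 2 each) down to early sham hyper (1.60 ± 0.95, n = 4), control skin (0.69 ± 0.91, n = 4) and mid sham hyper (0.40 ± 1.31, n = 2). Each of the 10 steps between neighbouring groups, 0.02 to 0.91 log2 units, was smaller than the pooled within-group SD of 0.95, and in all 10 the ranges overlapped.

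The course of SFRP4 was set against that of genes of the collagen matrix, which are known as products of active scar fibroblasts. Of 36 listed matrix genes 16 were measured, and 15 of these had their highest mean in early scar, 1 in mid scar (COL5A3, a minor fibrillar collagen chain) and 0 in late scar. Their median difference from control skin was 2.68 in early, 1.32 in mid and 1.08 in late scar. Late minus early was negative for 16 of 16, from -2.31 to -0.01 with a median of -1.67, whereas it was 1.12 for SFRP4. These genes were picked for comparison as early-peaking, so the contrast of shapes is a description.

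ASPN, a small proteoglycan that binds collagen, had the highest early difference from control skin, 4.55 ± 0.51, followed by 3.04 ± 0.51 in mid and 2.24 ± 0.51 in late scar. Its late biopsies, 1.92 to 5.92 with a median of 3.29, reached from inside the control range of 0.37 to 2.05 to above the early median of 5.73. COL1A2, a chain of the main dermal collagen, gave 3.38, 1.55 and 1.41 (SE 0.66 each) for early, mid and late minus control. COL5A2, a chain of a collagen that sets fibril width, gave 3.38, 1.89 and 1.5 (SE 0.46 each). VCAN, the large proteoglycan versican, gave 3.20, 2.14 and 1.38 (SE 0.41 each). POSTN, the matrix protein periostin, gave 3.11, 1.67 and 2.0 (SE 0.44 each), and COL5A1 gave 2.94, 2.16 and 1.76 (SE 0.42 each). Each of these 6 exceeded SFRP4 in early scar, and SFRP4 at 2.44 ± 0.53 exceeded each of them in late scar. The late gaps to ASPN and POSTN were smaller than the SE of SFRP4. Since SFRP4 was chosen by its late level, this order is a description.

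**Figure D2:**
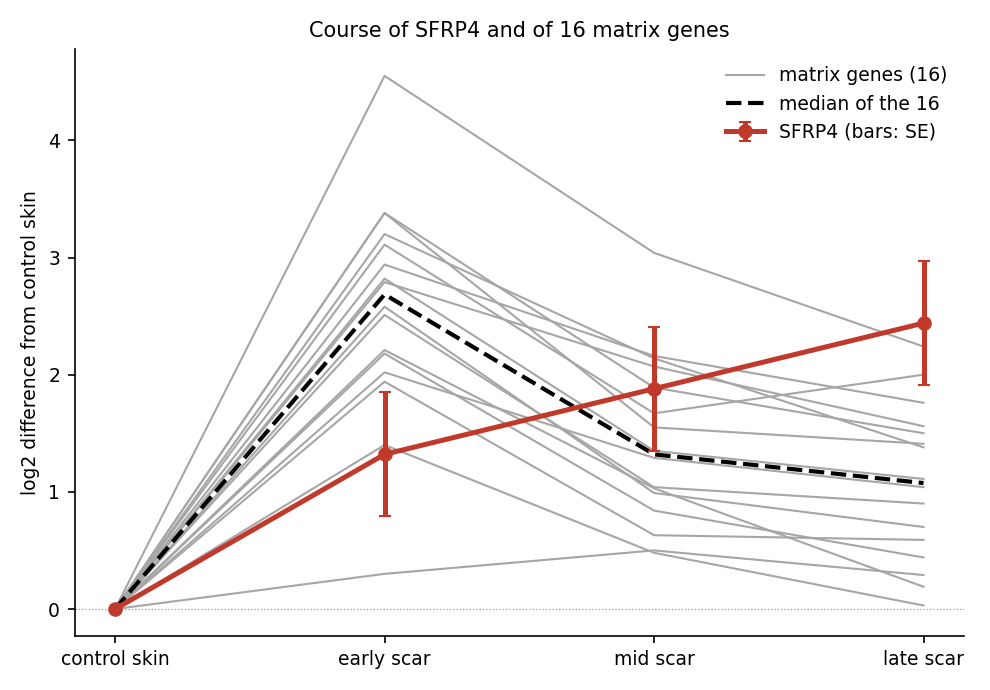
Log2 difference from control skin (vertical axis) in early, mid and late scar (horizontal axis) for SFRP4 (red, bars are SE) and the 16 measured matrix genes (grey, median dashed). SFRP4 goes through 1.32, 1.88 and 2.44, while the median of the matrix genes goes through 2.68, 1.32 and 1.08.

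Late scar was no rare place for a highest value. Over all 18766 features, 2211 had a difference from control skin above 1 in at least 1 phase, and 1133 of these (51.2%) were highest in late scar, 1003 in early and 75 in mid scar. A course that stood above control in early scar, higher in mid and higher still in late scar, with a late difference of at least 1, was seen for 964 features, of which 130 had a gene symbol.

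Across biopsies, SFRP4 and the matrix genes were also weakly related. Over the 28 arrays the Pearson correlation with SFRP4 was 0.10 to 0.31 for 14 of the 16 matrix genes, and 0.59 for COL5A3 and 0.62 for COL8A1, a short-chain collagen. Once group and animal means were removed it was 0.58 for COL5A3 and 0.62 for COL8A1, and -0.33 to 0.19 for the other 14. The arrays share a reference RNA and their animals, and no p is given for these correlations.

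Whether SFRP4 differed between hyper and hypo areas of scar was tested next, with hyper and hypo biopsies of the same pig, title code, phase and treatment as pairs. The labels do not say that a pair came from the same scar, and a number in the titles, with no stated meaning, differs within 5 of the 12 pairs. Over all phases the difference, hyper minus hypo, was -0.37 ± 0.35 (95% interval -1.1 to 0.36, limma adjusted p = 0.999). Of all features 0.016% (3) were called in this comparison. Of the 12 pairs 6 were higher in hyper and 6 in hypo scar, with a mean difference of -0.37 ± 1.62 (SD) and p = 0.463 (sign-flip permutation test, exact and two-sided); the smallest p this test can give is 0.000488.

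By phase the sign of the difference varied. In early scar, hyper averaged 1.60 ± 0.95 and hypo 2.44 ± 1.2 (SD, n = 4 each), a difference of -0.83 ± 0.61 (SE, limma adjusted p = 0.998), and 1 of 4 pairs was higher in hyper. In mid scar, hyper averaged 1.92 ± 1.94 and hypo 3.23 ± 0.52 (SD, n = 4 each), a difference of -1.31 ± 0.61 (SE, 95% interval -2.57 to -0.04, limma adjusted p = 0.526), and again 1 of 4 pairs was higher in hyper. In late scar, hyper averaged 3.65 ± 0.86 and hypo 2.62 ± 0.58 (SD, n = 4 each), a difference of 1.03 ± 0.61 (SE, 95% interval -0.24 to 2.29, limma adjusted p = 0.34), and 4 of 4 pairs were higher in hyper, by 0.47 to 1.54. None of these passed the threshold, an adjusted p of 0.05. Both late hypo biopsies of pig 50 had fewer probes well above background, 31.4% in 50L and 33.9% in 50R, than any other array (39.8% or more). Without the 3 muscle-rich arrays the difference was -0.03 ± 0.37 over all phases, -0.38 ± 0.62 in early, -1.07 ± 0.64 in mid and 1.37 ± 0.64 in late scar (limma adjusted p = 0.999, 0.991, 0.999 and 0.229). As measured on all arrays the mid difference was below an unadjusted 0.05 and the late one was not, and without those 3 arrays it was the other way round. The size also hung on single arrays: the early difference was -1.34 without early sham hyper 49R and -0.41 without early sham hypo 50L, and the late one was 0.52 without late sham hyper 49L and 1.98 under median centring. Of all features 0% were called in early, 0% in mid and 5.02% in late scar, with 4.61, 9.39 and 21.3% below an unadjusted p of 0.05 in limma.

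The change of that difference between phases was tested as an interaction. Late minus early it was 1.86 ± 0.86 (limma adjusted p = 0.221), where 4.92% of all features were called. Late minus mid, a contrast added after the values by phase had been seen, it was 2.33 ± 0.86 (limma adjusted p = 0.0995), where 7.59% were called. Both changes were below an unadjusted 0.05 and did not pass after adjustment. Without the 3 muscle-rich arrays they were 1.76 ± 0.89 and 2.44 ± 0.9 (limma adjusted p = 0.275 and 0.152). With the muscle-rich arrays kept, the late minus mid change passed under median centring (3.41, limma adjusted p = 0.0464). It was 2.84 when only late sham hyper 50L was left out.

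Values within a slide were few: hyper minus hypo was -1.75 in early scar on slide 6, -0.40 in mid scar on slide 5 and 2.06 in late scar on slide 7, from 1 or 2 arrays a side. Over the matrix list the median of hyper minus hypo was 0.00 in early, -0.52 in mid and 0.52 in late scar, and 1 of 16 genes was called in late scar and 0 in the other phases. Medians over all features were 0.03, 0.02 and -0.05. Macrophage markers (6 of 10 listed measured, all 6 well above background on 28 arrays) had medians of -0.63, -0.21 and 0.26 for the same contrasts, and keratinocyte markers (6 of 19 measured) 0.93, 0.35 and -0.93, with 0 of 6 called in any phase for either list in limma. Their part in the SFRP4 differences was not tested.

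Pressure against sham was compared in mid and late scar. Over both phases SFRP4 was 0.81 ± 0.43 higher under pressure (95% interval -0.09 to 1.70, limma adjusted p = 0.905), a difference that did not pass. Pressure was higher in 6 of 8 pairs of the same pig, phase and pigmentation, with a mean of 0.81 ± 1.73 (SD) and p = 0.227 (same exact permutation test, smallest possible p 0.00781). The title number differs within 5 of these 8 pairs; the 3 others averaged 1.25, and the mean of 7 pairs was 0.42 without the mid hyper pair of pig 49. Of all features 0% were called in this comparison by limma, and 5.12% had an unadjusted p below 0.05.

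In mid scar, pressure averaged 3.46 ± 0.39 and sham 1.68 ± 1.71 (SD, n = 4 each). The difference was 1.78 ± 0.61 (SE, 95% interval 0.51 to 3.05), below an unadjusted 0.05, and it did not pass after adjustment over all features (limma adjusted p = 0.999), with 0% of features called and 4.54% below an unadjusted p of 0.05. All 4 mid pairs were higher under pressure: the hyper pairs by 3.51 in pig 49 and 2.56 in pig 50, and the hypo pairs by 0.19 in pig 49 and 0.86 in pig 50. The larger differences are those of the pair of low sham hyper biopsies. In late scar, pressure averaged 3.05 ± 0.98 and sham 3.22 ± 0.89 (SD, n = 4 each), a difference of -0.16 ± 0.61 (SE, limma adjusted p = 0.992), with 0% of features called and 5.64% below an unadjusted p of 0.05. Both late pairs of pig 50 were higher under pressure, by 1.57 and 0.50, and both of pig 49 were lower (-1.40 and -1.32).

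The pressure effect in hyper minus that in hypo scar was 1.5 ± 0.86 (limma adjusted p = 0.356), where 0% of features were called and 18.6% had an unadjusted p below 0.05. It was 2.08 ± 0.92 without the 3 muscle-rich arrays (limma adjusted p = 0.178). Between biopsies with codes R and L that had no pressure, R minus L was 2.17, 0.50, 1.83 and -1.36 in the early pairs and -1.07 and 1.85 in control skin. These pairs had both signs, and the highest of them, 2.17, lay below the mid hyper pressure pairs of 3.51 and 2.56 and above the mid hypo ones. Within slides, pressure minus sham was 2.56 on slide 1 and -0.29 on slide 5 in mid scar, and 1.0 on slide 7 in late scar. Matrix genes had a median of 0.76 in mid and -0.16 in late scar for this contrast, with 0 of 16 called in either by limma. Macrophage markers had 0.02 and -0.54, skeletal muscle markers (13 of 16 measured) 0.95 and 0.91, and adipocyte markers (10 of 10 measured) 1.09 and -0.23. In each list 0 were called in limma, and their part in the result was not tested. Without the 3 muscle-rich arrays pressure minus sham was 1.1 ± 0.46 over both phases (limma adjusted p = 0.744), 2.01 ± 0.64 in mid scar (limma adjusted p = 0.476) and 0.18 ± 0.64 in late scar (limma adjusted p = 0.978).

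**Figure D3:**
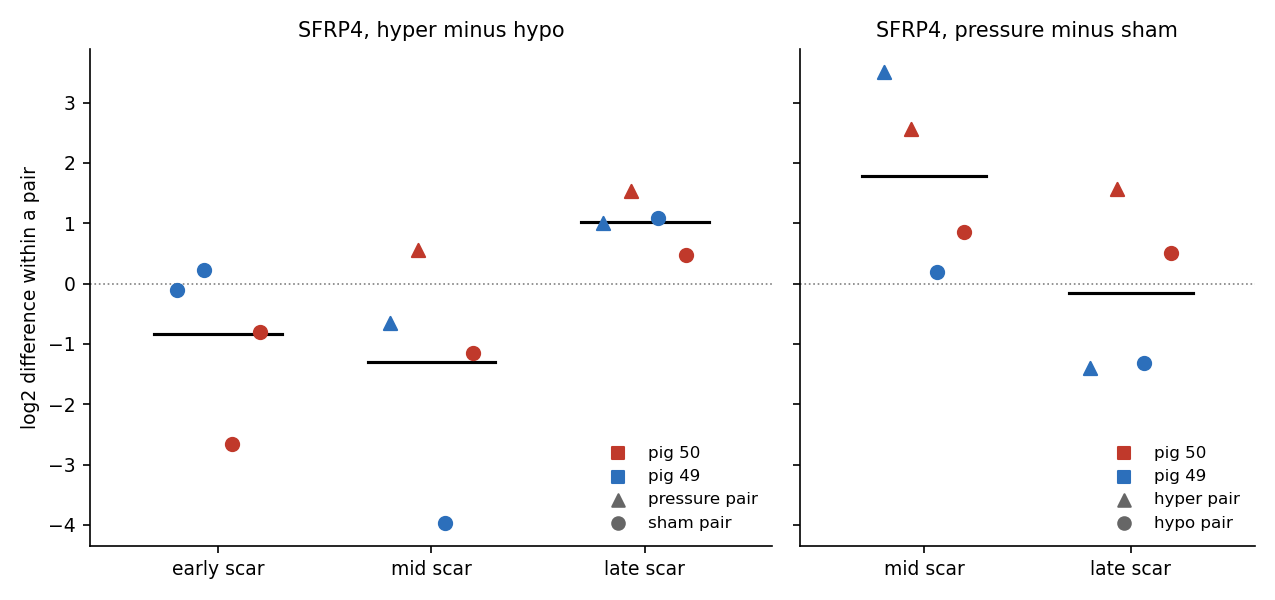
SFRP4 differences within pairs of biopsies of the same pig (log2, vertical axis): hyper minus hypo in early, mid and late scar (left) and pressure minus sham in mid and late scar (right). Points are pairs, coloured by pig, and bars are means. All 4 late pairs lie above 0 on the left (0.47 to 1.54), all 4 mid pairs lie above 0 on the right, and the late pressure pairs split by pig.

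Between animals, SFRP4 in pig 50 minus pig 49 was 0.26 ± 0.32 (limma adjusted p = 0.872), where 0.202% of all features were called. Scar of pig 50 averaged 2.69 ± 1.03 and scar of pig 49 2.46 ± 1.43 (SD, n = 12 each). Without the 3 muscle-rich arrays the difference between pigs was -0.03 ± 0.34 (limma adjusted p = 0.983).

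The other genes of the WNT pathway were read from a list of 128 genes, drawn up with earlier results of these data known. Of these, 21 were named on the array and 17, SFRP4 among them, passed the filter on dim probes, so that the list describes a small share of the pathway. Of the 16 besides SFRP4, 4 rose and 5 fell in early scar against control skin, 0 rose and 3 fell in mid scar, and 1 rose and 5 fell in late scar. Over all features 38.9% were called in early, 33.8% in mid and 39.7% in late scar, so the 9, 3 and 6 called of 16 stood above, below and near those shares. The median over the 16 genes was -0.05, -0.22 and -0.22, beside 0.11, 0.10 and 0.10 over all features. The late count was 3 without control 49R, 3 without control 49L and 2 without control 50L. Over all features 6428, 6566 and 5352 were then called in late scar, against 7458 in the full fit. The late count of WNT genes also fell without late sham hyper 49L, late pressure hyper 49R or late pressure hypo 50R. The mid count rose without mid sham hypo 49L.

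Among the SFRP family, FRZB, a frizzled-related antagonist known for its role in cartilage, was the other measured member. It lay between -1.32 and -0.66 in early scar (median -1.0), against -0.75 to -0.07 in control skin (median -0.37). It fell in early scar by 0.60 (SE 0.19, limma adjusted p = 0.0144), a call lost without the cap on backgrounds (-0.22), and in mid and late scar its differences were -0.28 ± 0.19 and 0.06 ± 0.19 (limma adjusted p = 0.261 and 0.833). All 7 of its probes were lower in early scar, with differences of -1.86 to -0.60, and in mid scar, with -1.37 to -0.28. In late scar they ran from -0.92 to 0.06, and only 1 of the 7, the brightest one reported here, was above 0. Its late values come from 7 arrays, the outlier spot of 1 array being left out. The lowest phase mean in scar was thus the early one for both genes. SFRP5 was well above background on 2 arrays and was not tested, and SFRP1 and SFRP2 were not analysed here.

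Of the other secreted or surface antagonists, DKK2, a dickkopf protein that binds LRP coreceptors, fell at each phase, with differences of -2.29 ± 0.37, -2.16 ± 0.37 and -1.78 ± 0.37 in early, mid and late scar (limma adjusted p = 6.92e-05, 0.000248 and 0.000759). Its early scar biopsies lay at 0.05 to 1.21, mid at -0.19 to 1.30 and late at -0.39 to 2.43, against 2.21 to 3.54 in control skin, so that only late scar overlapped with control. DKK3, a divergent member of that family, rose in early scar (0.91 ± 0.35, limma adjusted p = 0.045), a call that was lost under the processed signals of the scanner program, the value table of the authors, median centring and Cy5 alone, where its difference was 0.85, 0.85, 0.63 and 0.94. TPBG, a membrane glycoprotein that inhibits WNT signalling in zebrafish, fell in late scar (-0.72 ± 0.27, limma adjusted p = 0.0434), a call lost under the scanner program's processed signals (-0.66). IGFBP4, which binds insulin-like growth factors and has been described as a WNT inhibitor, rose in early scar (1.39 ± 0.29, limma adjusted p = 0.000911). It was well above background on 8 early, 4 mid and 2 late arrays and on 0 control arrays. In the normalised Cy5 channel its log2 mean was 7.84 in early scar and 6.55 in control skin, a 2.45-fold difference. As the control signals were not well above background, this is an estimate and no bound. Without swapped dyes it is also open to dye bias.

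SFRP4 and DKK2 therefore stood on opposite sides of control skin at all 3 phases. WNT2B was the only ligand measured and did not pass in any phase (0.24, 0.10 and -0.06, SE 0.24 each, limma adjusted p from 0.448 to 0.852). FZD3, a frizzled receptor, and NDP, a non-WNT ligand of a frizzled receptor, were well above background on 1 and 0 arrays, and no receptor was tested.

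Inside the cell, CTNNB1, the gene for β-catenin, fell in late scar (-0.59 ± 0.21, limma adjusted p = 0.0308), and all 5 of its probes were lower there. GSK3B, the kinase that marks β-catenin for breakdown, rose in early scar (0.54 ± 0.14, limma adjusted p = 0.00361), a call lost under median centring (0.28). Its 2 probes gave 0.10 and 0.54 there. PYGO2, a cofactor of β-catenin in the nucleus, was called in no phase.

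Among genes known as WNT targets, LEF1, a partner of β-catenin on DNA that is prominent in the hair follicle, fell at each phase, with differences of -1.28 ± 0.26, -1.53 ± 0.26 and -1.75 ± 0.27 (limma adjusted p = 0.000701, 0.000294 and 6.85e-05). Its scar values, 0.76 to 1.22 in early, 0.04 to 1.68 in mid and -0.64 to 1.26 in late scar, did not reach those of control skin, 2.04 to 2.46. For LEF1, too, 7 late arrays were measured. MYC, a growth regulator, also fell at each phase, with differences of -1.15, -0.76 and -0.50 (SE 0.19 each, limma adjusted p = 8.27e-05, 0.00444 and 0.038), the late call being lost with Cy5 alone (-0.63). JUN, a subunit of AP-1, rose in early scar (1.67 ± 0.32, limma adjusted p = 0.000376) and in late scar (0.99 ± 0.32, limma adjusted p = 0.018), the late difference being -0.15 under median centring. ID2, an inhibitor of differentiation factors, fell in early scar (-1.44 ± 0.44, limma adjusted p = 0.014). BIRC5, PPARD and FGF9 were called in no phase. Without the cap on backgrounds, the early calls of IGFBP4 and ID2 and the late calls of TPBG, MYC and JUN did not pass either, with differences of 0.70, -1.11, -1.18, -0.76 and 0.86.

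Hair follicle and sweat gland markers moved with these falls: their mean over 5 of 11 listed genes was -0.39 to 2.06 over the scar arrays, against 3.65 to 4.15 in control skin. Their part in the values of LEF1 and DKK2 was not tested. Without the 3 muscle-rich arrays, fewer of the 16 genes were called in late scar. That fit leaves a single biopsy in the mid and in the late pressure hyper group, so no count is read from it.

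**Figure D4:**
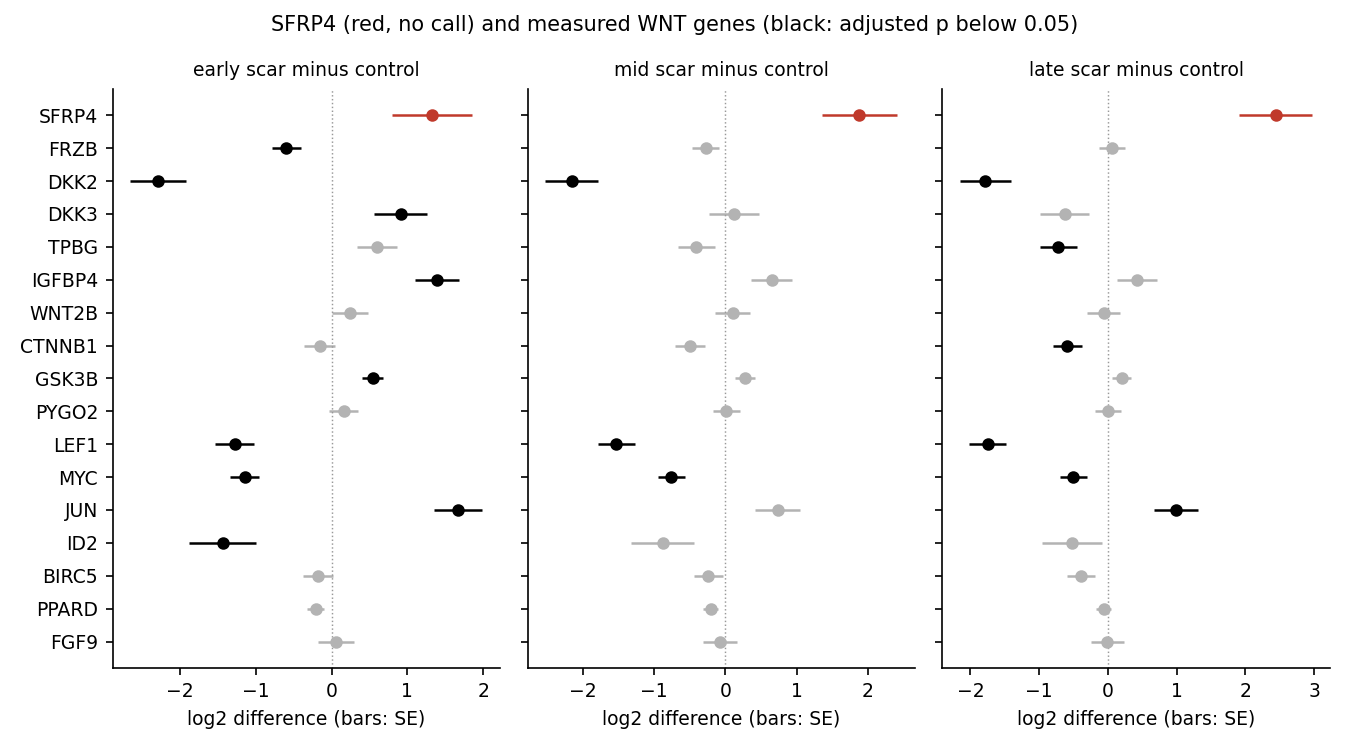
Log2 difference from control skin (horizontal axes, bars are SE) in early, mid and late scar for SFRP4 (red, given without a call) and the 16 other measured WNT pathway genes (black where the limma adjusted p is below 0.05, grey otherwise). DKK2 and LEF1 lie left of 0 in each panel, while SFRP4 lies at 1.32, 1.88 and 2.44.

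The genes whose pattern was most like that of SFRP4 were sought among 16399 features with no missing value, 2347 of them named. Pearson's r over the 28 arrays reached 0.84 for an unnamed transcript, was at least 0.8 for 4 features and at least 0.7 for 60. The 8 named genes with the highest r were ADGRE5 (0.77), NPY1R (0.77), TLR1 (0.76), CCL19 (0.76), PSMB10 (0.75), SDCBP (0.75), ICAM1 (0.75) and PIK3CG (0.74). ADGRE5 is an adhesion receptor of leucocytes, TLR1 a receptor for bacterial lipopeptides, CCL19 a chemokine that draws T and dendritic cells, ICAM1 an adhesion protein for leucocytes, PSMB10 a subunit of the immunoproteasome and PIK3CG a lipid kinase of leucocytes. NPY1R is a receptor for neuropeptide Y and SDCBP encodes the scaffold protein syntenin.

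CCL19 had a course close to that of SFRP4, with differences from control skin of 0.55, 1.2 and 1.57 in early, mid and late scar, and late biopsies at -0.31 to 1.46 against -1.74 to -0.86 in control skin. ADGRE5 gave 0.65, 0.85 and 1.07, and ICAM1 1.08, 1.08 and 1.33. The 4 named genes with the lowest r were CBR1 (-0.77), a carbonyl reductase, LTF (-0.75), the iron-binding protein lactoferrin of glands and neutrophils, EPCAM (-0.72), an adhesion protein of epithelial cells, and MARVELD3 (-0.72), a protein of tight junctions. CBR1 lay at -2.90 to -0.63 in early, -3.06 to 0.28 in mid and -2.5 to -1.49 in late scar, against 1.01 to 1.77 in control skin.

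After removal of group and animal means, which leaves the differences between biopsies of a group, the highest named genes were C1S (0.78), C4BPA (0.77), FOLR1 (0.77), NPY1R (0.76), PIK3CG (0.75), SDCBP (0.75), PSMB10 (0.74) and CD163 (0.74). C1S is a protease of the complement pathway, C4BPA a regulator of complement, FOLR1 a folate receptor and CD163 a scavenger receptor of macrophages. The lowest were CD1D (-0.78), which presents lipid antigens, CBR1 (-0.74), EPCAM (-0.73) and ALDH5A1 (-0.71), a mitochondrial enzyme. NPY1R, PIK3CG, SDCBP and PSMB10 were among the highest, and CBR1 and EPCAM among the lowest, by both measures. Probes of PIK3CG, C1S and C4BPA did not all give the same direction against control skin. The CD1D probe was well above background on 4 early, 1 mid, 2 late and 4 control arrays and that of NPY1R on 5, 7, 6 and 2, so that much of their pattern lies near background. The LTF probe was well above background on 8 early, 6 mid, 1 late and 4 control arrays. Its r with SFRP4 was -0.37 once group and animal means were removed. These correlations were picked from many features, the arrays share 1 reference RNA, and they are given with no p.

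Macrophage markers ran beside SFRP4 in some biopsies and not in others. The list score, the mean of each marker's log2 difference from its median over all arrays, was 0.90 in early sham hypo 50L, 0.90 in mid pressure hyper 50R, 0.84 in late sham hyper 49L and 0.62 in mid sham hypo 49L, where SFRP4 was 3.77, 3.89, 4.41 and 3.45. It was -0.67 in mid sham hyper 49L, where SFRP4 was -0.52, and -1.42 to -0.34 in control skin. Late pressure hypo 49R had the lowest score of the scar arrays, -0.91, and the lowest late SFRP4, 2.0. Other arrays went the other way: the score was -0.40 in mid pressure hypo 50R, -0.36 in mid pressure hyper 49R and -0.35 in late pressure hyper 49R, where SFRP4 was 3.34, 2.99 and 3.01, and it was 0.53 in early sham hypo 49L, where SFRP4 was 0.87. The correlation of this score with SFRP4 was 0.68 over 28 arrays and 0.53 over the 24 scar arrays.

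The macrophage score had another order of phases: its median was 0.22 in early, 0.04 in mid and -0.07 in late scar, against -0.79 in control skin. For the fibroblast list (9 of 16 measured) the correlation with SFRP4 was 0.21 over 28 arrays and -0.19 over the scar arrays, with phase medians of 0.77, -0.06 and -0.41, against -0.98 in control skin. The keratinocyte list gave -0.46 over 28 and -0.33 over the scar arrays, the skeletal muscle list 0.30 and 0.20, and the adipocyte list 0.09 and 0.40. For the endothelial list (7 of 10 measured) it was 0.53 and 0.20, and its median was -0.06 in early, 0.06 in mid and 0.25 in late scar, against -0.96 in control skin. For the T and NK cell list (8 of 9 measured) it was 0.39 and 0.15, with medians of -0.06, 0.13 and 0.26, against -0.23 in control skin. The skeletal muscle list had medians of -0.12, 0.35 and 0.60, against -0.50 in control skin. The medians of the endothelial, T and NK cell and skeletal muscle lists thus had the same order of phases as the SFRP4 means, with control skin lowest. The T and NK cell score lies partly near background. Of its markers, IL7R was well above background on 4 of 28 arrays, CD2 on 5, CD3G and KLRK1 on 14 each and CD8A on 15. LCK, CD3E and GZMB were so on 21, 27 and 28. The SFRP4 medians, 2.01, 3.16 and 2.92, were highest in mid scar. What part the share of any cell type has in the SFRP4 values was not tested.

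**Figure D5:**
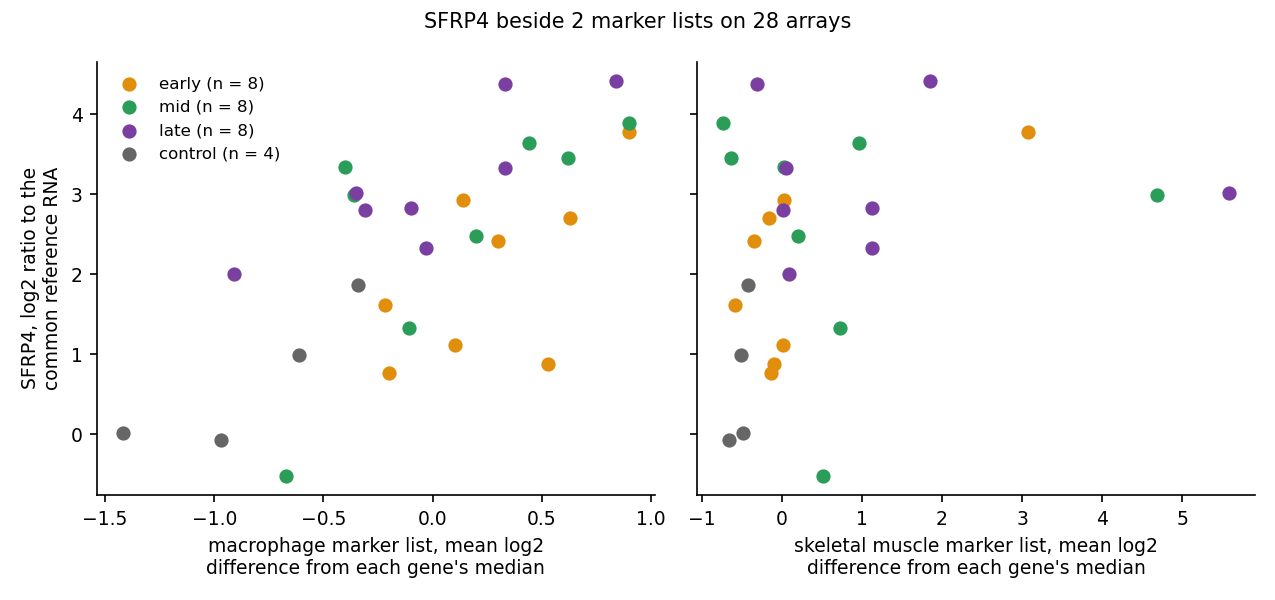
SFRP4 as a log2 ratio to the reference RNA (vertical axis) against the macrophage marker score (left) and the skeletal muscle marker score (right), both in log2 units, for 28 arrays coloured by phase. The correlation is 0.68 on the left and 0.30 on the right, and the 3 arrays with muscle scores of 3.07 to 5.59 have SFRP4 of 2.99 to 3.77.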

How the data were processed

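Expression was measured on 28 Agilent pig arrays with 2 colours, which filled 7 slides (4 each), without dye swap per the labels. The scanner program was Agilent Feature Extraction 10.7.1.1, per the file headers. It gave median spot and background intensity values in the deposited scanner files, together with processed intensity values and a log10 ratio of Cy5 to Cy3. The authors also deposited a log2 value table, whose values equalled the log2 ratio of the processed signals within 0.001 for 99.97 to 99.99% of probes per array. No genome build is given in the sources used here.

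Median intensities were background-corrected in limma 3.58.1 (R 4.3.3) by normexp with offset 50, with backgrounds above the 99th percentile of an array's channel set to that percentile, then normalised by loess within arrays. Spots flagged as outliers were set as missing (0.53% of feature values). Probes well above background in Cy5 on at least 4 arrays were kept (24510 of 43603). RefSeq transcripts named 6816 probes, and the brightest probe stood for a gene.

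A linear model of 11 groups, blocked by animal, gave 18766 tests per contrast, with Benjamini-Hochberg adjustment at 0.05. Replicates of mid and late groups are the 2 pigs, so the pairing comes from the animals. Pairs were tested by sign flips (SciPy). Alternatives varied the backgrounds, scaling, probe filter, animal and slide terms, value table and arrays left out. The members and lists were chosen with earlier results of these data known. The genes named were SFRP4, other SFRP members, called WNT genes (up to 4 a list), the 6 matrix genes of highest early difference, and the 8 highest and 4 lowest named correlations with SFRP4. The fit was tested on simulated data.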

Additional observations from a re-analysis of the deposited data

Results flagged for a closer look

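The effect of pressure on SFRP4 in late scar had opposite signs in the 2 pigs. Pressure minus sham averaged 1.04 in pig 50 (pairs of 1.57 and 0.50) and -1.36 in pig 49 (pairs of -1.40 and -1.32), so that the pigs differed by 2.4 log2 units. This difference was not tested.

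The sign of hyper minus hypo in sham scar also turned between phases. It averaged 0.78 in late scar (1.09 and 0.47) and -2.56 in mid scar (-3.97 and -1.15), a difference of 3.34 log2 units between phases that was not tested for the sham biopsies alone. The test over sham and pressure biopsies together gave 2.33 (limma adjusted p = 0.0995).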

How the results depend on the processing

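SFRP4 kept its direction against control skin in all 12 alternatives (early 1.01 to 1.64, mid 1.40 to 2.31, late 1.56 to 2.84, late minus early sham 0.42 to 1.42). Leaving out 1 array gave 1.04 to 1.68, 1.59 to 2.24, 2.16 to 2.80 and 0.69 to 1.70. Without the animal block, late minus control was 2.44 and the count of passing SFRP4 tests did not change. Some of the 12 alternatives could not move these estimates. Early, mid and late stayed at 1.32, 1.88 and 2.44 without the animal block, without the probe filter and with a gene's probes averaged. The same held when intensities were equalised between arrays, which leaves ratios unchanged. The authors' table gave 1.37, 1.91 and 2.49, as did the processed signals it repeats. SFRP4 was chosen by its late level, so these ranges are a description. Median centring moved the median of all features by -0.20 for late scar against control. Hyper minus hypo in late minus mid scar passed under median centring (3.41) and ranged from 1.83 to 2.84 with 1 array left out, passing without late sham hyper 50L (2.84). Pressure minus sham in late scar was 0.09 with slide as a fixed block, 0.11 with median centring and 0.18 without the 3 muscle-rich arrays, an alternative added after seeing the data, and -0.67 to 0.34 with 1 array left out (0.34, 0.13 and 0.18 without late sham hyper 49L, late pressure hyper 49R and late sham hypo 49L). Pig 50 minus pig 49 was -0.03 without the muscle-rich arrays. No other SFRP4 test changed sign or side of the threshold in the fits run, and the causes were not tested.

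The count of WNT genes in mid scar was 5 with the scanner program's processed signals, 5 with the authors' table, 5 with the mean of a gene's probes, 6 with Cy5 alone and 7 with median centring (3 to 5 with 1 array left out). In late scar it was 3 with slide fixed, 3 with uncapped backgrounds, 3 without the muscle-rich arrays and 11 with median centring (2 to 7 with 1 array left out). Features called in mid scar were 4148 with slide fixed and 3903 to 6592 with 1 array left out (lowest without control 50L). Features called for hyper minus hypo over all phases, 3, were 0 with slide fixed or uncapped backgrounds, 1 with median centring and 7 with processed signals or the authors' table (1 to 8 with 1 array left out, highest without mid sham hyper 49L). For pressure minus sham they were 0 to 41, highest without late pressure hyper 50R. Late calls over all features were 5968, 5950 and 7069 with slide fixed, uncapped backgrounds and median centring, against 7458 in the full fit. As shares, the 11 of 16 WNT genes under median centring stood above all features. The 3 of 16 with slide fixed or uncapped backgrounds stood below. Mid calls over all features were 5505 with Cy5 alone and 5234 with median centring, against 6341. The 6 and 7 of 16 WNT genes stood above those shares. The depth limit is the SFRP4 spot itself: 1 spot of 1 probe on each array.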
